A study of Mus musculus with 10 samples.

Results

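The nuclear-encoded subunits of the respiratory chain were taken as the genes whose symbols name a subunit of complexes I to IV or of ATP synthase (Nduf, Sdh, Uqcr, Cyc1, Cox4 to Cox8 and Atp5 symbols), which gave 87 of the 21934 gene symbols in the deposited tables. They fell into 38 genes of complex I, 4 of complex II, 9 of complex III, 18 of complex IV and 18 of ATP synthase. The series is a mouse ribosome profiling study of Wdr4, which encodes a subunit of a tRNA methyltransferase formed with Mettl1. It sequenced ribosome-protected fragments (footprints) and input RNA, with 1 library of each kind in each of 5 conditions. Immortalized bone marrow-derived macrophages (iBMDM) carried a first Wdr4 guide (sgWdr4-1, guide 1), a second Wdr4 guide (sgWdr4-2, guide 2) or neither (WT). The iBMDM were monoclonal lines, the guides came by lentivirus, and puromycin was applied for at least a week before collection. Tumour-associated macrophages (TAMs) were sorted by F4/80 from orthotopic liver tumours that grew after Hepa1-6 hepatoma cells were inoculated, either in myeloid-specific Wdr4 knockout mice (Wdr4 cKO) or in floxed Wdr4 ff mice. Neither the promoter driving Cre nor the age of the mice or the number of animals behind a library was stated in the labels. With 1 library per condition and kind, every value below is a single measurement with no replicate error, except where the 2 guide lines were tested together against WT.

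Oxidative phosphorylation couples electron flow to ATP synthesis in the inner mitochondrial membrane. Complexes I and II pass electrons from NADH and succinate to ubiquinone, complex III passes them on to cytochrome c and complex IV to oxygen, while ATP synthase uses the resulting proton gradient. All complexes but complex II join subunits made on cytosolic ribosomes with subunits encoded in mitochondrial DNA, so their assembly needs matched supply from both. The core subunits hold the redox centres or the catalytic sites, and the many small accessory subunits surround them.

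Values are TPM, in which read numbers are scaled to gene length and to a common library total, so a value is a share of its library and not an amount per cell. In such bulk libraries, fewer cells of a type and less RNA per cell cannot be told apart. One footprint library, that of guide 1, differed widely from the rest: the 13 genes encoded in mitochondrial DNA had 0.781% of TPM there, against 10.3% under guide 2, 14.6% in WT, 13.6% in cKO and 9.94% in ff. Input RNA of the targeted gene Wdr4 was 31.3 TPM under guide 1, 44.5 TPM under guide 2 and 44.6 TPM in WT, and 20.9 TPM in cKO against 39.8 TPM in ff. Its footprints went against the labels, at 24.3 and 26.9 TPM in the libraries labelled guide 1 and guide 2 against 13.3 TPM in WT, and 17.7 TPM in the library labelled cKO against 8.51 TPM in ff. Macrophage identity was not borne out by its markers, since 16 of 20 listed genes did not reach 1 TPM in any input and Adgre1, which encodes F4/80, was at 0 in all. The summed macrophage list lay between 527 and 688 TPM of input, of which Lgals3 alone held 503 to 669 TPM. The fibroblast and stellate list summed to 4226 TPM of input under guide 1, 3649 TPM under guide 2 and 3578 TPM in WT, and to 5246 TPM in cKO against 3591 TPM in ff, with 6 of its 10 genes at 5 TPM or more in every input and 4 under 1 TPM. Acta2 was the largest part of it, at 3785 TPM in cKO against 2483 TPM in ff. In the hepatocyte and hepatoma list 6 of 8 genes did not reach 1 TPM in any input, and its sum was 139 TPM under guide 1, 108 TPM under guide 2, 114 TPM in WT, 166 TPM in cKO and 98.7 TPM in ff. The part of these library and marker differences in the results below was not tested.

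Promoter sequences from RefSeq (GRCm38.p6; 250 bases before to 50 bases after the start) were in hand for 68 of the 87 genes. The 9-letter word AAGATGGCG, the centre of the translation initiator of short 5′ UTR (TISU) element that joins a start codon to a short leader, was searched on the sense strand after the start. It was found in 6 of 68 members (8.82%), against 0.762% of the 27025 promoters in the table. Among the 6090 promoters of expressed genes, those that passed the expression filter in the iBMDM libraries, it was in 2.69%. The 30-base windows are shown because the element bears on how these mRNAs are read, with the word in capitals.
Ndufc1, chr3:51408914-51408943, minus strand: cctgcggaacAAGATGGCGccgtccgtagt
Atp5mf, chr5:145191499-145191528, minus strand: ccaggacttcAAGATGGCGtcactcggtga
Ndufa9, chr6:126849096-126849125, minus strand: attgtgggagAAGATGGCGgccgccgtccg
Ndufs7, chr10:80249463-80249492, plus strand: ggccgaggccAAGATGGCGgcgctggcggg
Ndufs6, chr13:73328433-73328462, minus strand: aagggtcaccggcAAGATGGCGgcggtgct
Ndufs4, chr13:114388045-114388074, minus strand: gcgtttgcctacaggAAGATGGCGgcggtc
The word began between 23 bases (Ndufc1) and 36 bases (Ndufs4) after the start, and 5 of the 6 genes encode complex I subunits, as do 38 of the 87 members. Whether the word is more frequent in complex I was not tested. The same letters anywhere on either strand were in 10.3% of members, 1.64% of all promoters and 4.66% of those of expressed genes.

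A second word, GCATGCGC, searched on both strands with overlapping matches counted once, is part of the palindromic sites of NRF1, a transcription factor known for its many targets among nuclear genes of mitochondrial proteins. It was present in 10 of 68 members (14.7%), against 3.05% of all promoters and 7.21% of those of expressed genes. One window from each of 4 complexes is shown, with the word in capitals.
Ndufa8, chr2:36049328-36049357, minus strand: tcgctggagacGCATGCGCagatggtaccg
Sdhb, chr4:140961206-140961235, plus strand: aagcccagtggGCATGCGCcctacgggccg
Uqcrc1, chr9:108936668-108936697, plus strand: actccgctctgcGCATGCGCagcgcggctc
Cox6a1, chr5:115349100-115349129, minus strand: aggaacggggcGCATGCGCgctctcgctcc
The others with the word were Ndufa6, Ndufa11, Uqcr11, Atp5mc2, Atp5me and Atp5mg. The shorter words CCGGAAG (bound by ETS factors such as GABP) and CCAAT, searched on both strands, were in 23.5% and 42.6% of members, against 24.8% and 44.0% of promoters of expressed genes. A match describes these letters in this window and not a bound site.

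At the RNA level the 87 genes differed little between conditions. Together they took 2.11% of input TPM under guide 1, 2.21% under guide 2 and 2.22% in WT, and 2.05% in cKO against 2.16% in ff. For the 77 members that passed the filter (a mean of at least 5 TPM in input and in footprints, in both tables), the highest of the 5 input values exceeded the lowest by a median factor of 1.17. That factor reached 1.55 at most, for Ndufa3, a small accessory subunit of complex I. In footprints the median factor was 1.59 and the highest 8.21, for Atp5f1a, which encodes the alpha subunit of the ATP synthase head. These factors were not computed over all genes. Differences past 2-fold were more frequent in footprints than in input over all genes too, so this contrast cannot be read as particular to the members. Footprints of the 87 genes together took 3.62% of TPM under guide 1, 3.82% under guide 2 and 3.46% in WT, and 4.31% in cKO against 3.62% in ff.

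**Figure D1:**
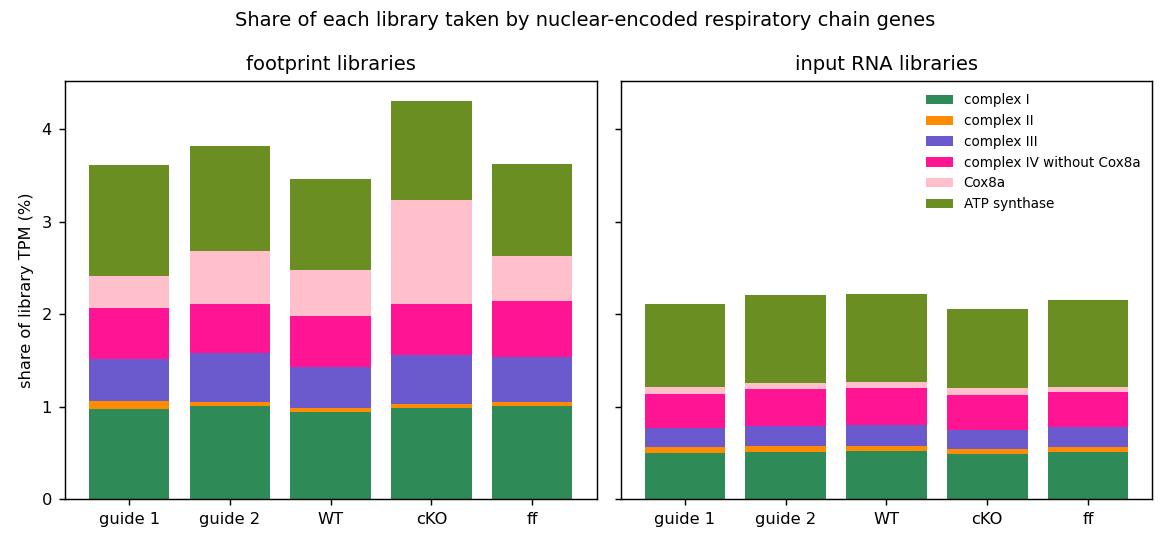
Stacked bars give the share of TPM (percent of the library) taken by the genes of each complex in the 5 footprint libraries (left) and the 5 input RNA libraries (right), with Cox8a drawn apart from the rest of complex IV. Input bars lie between 2.05% and 2.22%, and the tall cKO footprint bar carries 1.12% from Cox8a alone.

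A single gene, Cox8a, which encodes a small membrane subunit of complex IV, held much of the footprint difference between the TAM libraries. Cox8a footprints were 3419 TPM under guide 1, 5804 TPM under guide 2 and 4975 TPM in WT, and 11224 TPM in cKO against 4835 TPM in ff. Its input stayed between 614 and 750 TPM. Without Cox8a the member share of footprints was 3.28% under guide 1, 3.24% under guide 2 and 2.97% in WT, and 3.18% in cKO against 3.14% in ff.

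Of the 87 symbols, 10 did not pass the filter, and they were of 2 kinds. Most were tissue-restricted or near-silent genes: Cox4i2, Cox6a2, Cox6b2, Cox7a1, Cox7b2, Cox8b and Cox8c, the lung, muscle or testis forms of complex IV subunits, had inputs of 0 to 2.43 TPM, and Ndufb11b was listed at 0 everywhere. Their common counterparts Cox4i1, Cox6a1, Cox6b1, Cox7a2, Cox7b and Cox8a had inputs between 178 and 750 TPM. The other kind had ample RNA and almost no footprints. Ndufb4, an accessory subunit of complex I, had 93.0 to 111 TPM of input and footprints of 0.239 TPM under guide 1, 0.357 TPM under guide 2 and 0 in WT, and 1.17 TPM in cKO against 0 in ff. Atp5mc2, one of 3 genes for the same c-ring protein, had 427 to 488 TPM of input and footprints of 0.284 TPM under guide 1, 0 under guide 2 and in WT, and 1.39 TPM in cKO against 0 in ff. Cycs, the electron carrier cytochrome c and not a member by its symbol, was listed at 0 footprints in all 5 libraries with 124 to 150 TPM of input. RefSeq lists genes or pseudogenes named after some of these genes (Ndufb4b, Ndufb4c and several Cycs pseudogenes). It also lists a pseudogene of Cox7c, a member that passed the filter with few footprints. Their sequences were not compared here. How the deposited tables treat reads that match several copies is not given in the sources used here, so these low footprint values are uncertain.

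Translation efficiency (TE) was taken as log2(footprint TPM + 1) minus log2(input TPM + 1), so 0 means equal shares of both libraries. Most subunits sat high on this scale in all conditions. The median of the 77 members was 0.56 under guide 1, 0.53 under guide 2 and 0.42 in WT, and 0.58 in cKO against 0.59 in ff. The median of all genes tested in the same libraries was -0.43 under guide 1, -0.63 under guide 2 and -0.58 in WT, and -0.85 in cKO against -0.59 in ff. In the same order, the 52 assembly factors, which build the complexes, had 0.33, 0.35, 0.43, 0.66 and 0.57. The 13 mitochondrially encoded genes had -2.77, 0.90, 1.46, 1.23 and 0.86. The 78 mitochondrial ribosomal protein genes had 0.09, 0.002, -0.27, -0.11 and -0.26. A TE above the all-gene median was thus not particular to the subunits. Of the 77 members, 57 exceeded the all-gene median in every condition and 3 were below it in every condition, namely Ndufs1, Atp5f1c and Cox7c. The share of all genes on one side in every condition was not counted. In single conditions, 60 (WT and ff) to 71 (guide 1) of the 77 exceeded it, where by definition 3768 of 7536 iBMDM genes do. The gene length behind each TPM is not given in the sources used here, and it enters the TE of a gene in every library alike.

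**Figure D2:**
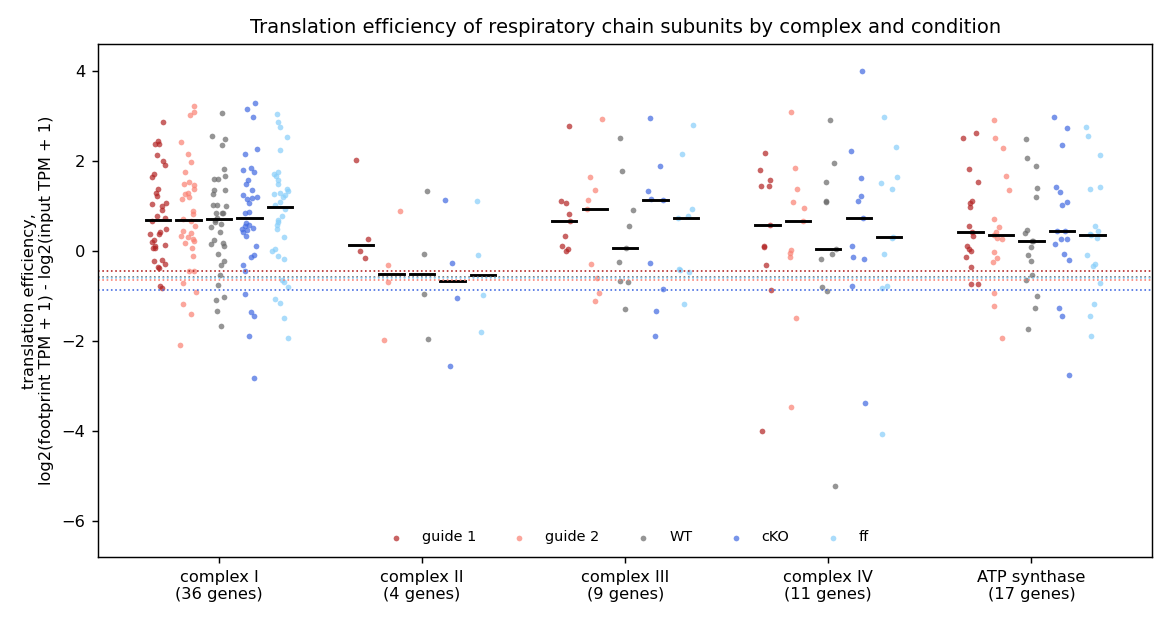
Each point is the TE (log2) of 1 of the 77 subunit genes in 1 condition, grouped by complex and coloured by condition; black bars are medians and dotted lines the all-gene median of each condition. Complex II has the lowest median in each condition, and the isolated low points in complex IV are Cox7c.

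Median TE differed between members grouped by role. Coding lengths were not used, so role cannot be told apart from length here. The 18 core, catalytic and central stalk subunits had a median TE of 0.03 under guide 1, -0.81 under guide 2 and -0.81 in WT, and -1.15 in cKO against -0.89 in ff. The other 59 members had medians of 0.83 under guide 1, 0.90 under guide 2 and 0.84 in WT, and 1.11 in cKO against 0.93 in ff. Outside guide 1, the core median thus lay under the all-gene median and that of the other subunits above it. The separation was not complete, since 6 of the 18 core genes (Ndufs3, Ndufs7, Ndufs8, Uqcrfs1, Atp5f1d and Atp5f1e) exceeded the all-gene median in every condition. Of the 59 other members, 56 exceeded it under guide 1, under guide 2 and in cKO, 53 in WT and 52 in ff. The order of the 77 members was similar between WT and ff libraries, which share no library (Pearson's r of TE 0.98, against 0.92 over 6927 genes). It was also similar between guide 2 and cKO libraries (r of 0.98, against 0.92), and less so between guide 1 and cKO (0.83, against 0.61). These are descriptions across genes that share their libraries.

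**Figure D3:**
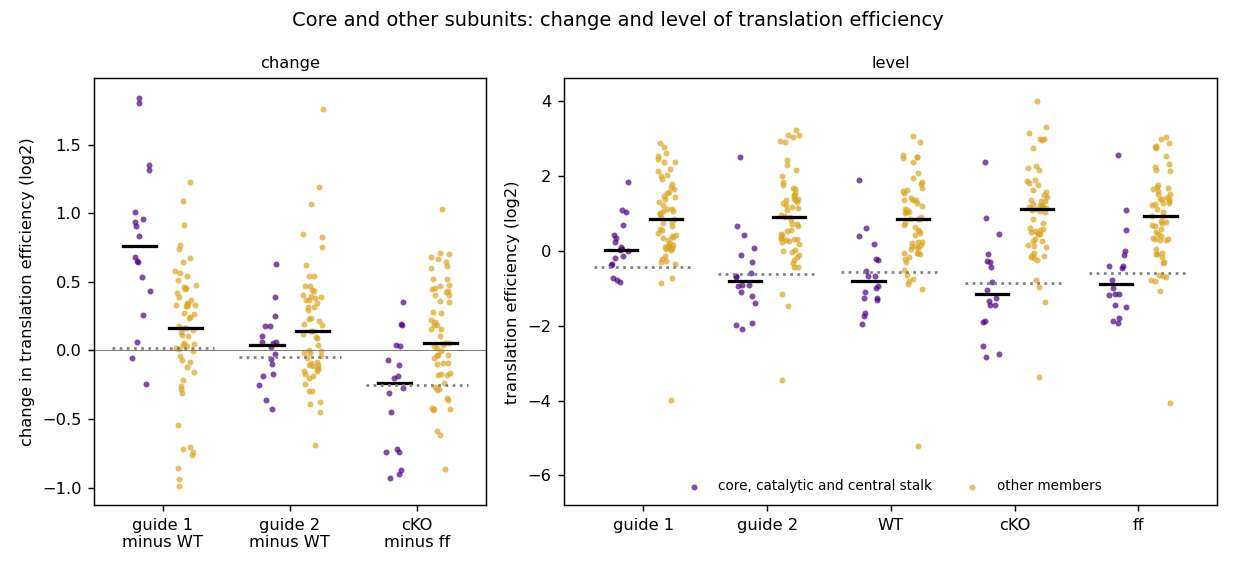
Left, the change in TE (log2) of each member for guide 1 minus WT, guide 2 minus WT and cKO minus ff; right, its TE level in the 5 conditions, for the 18 core, catalytic and central stalk subunits and the 59 other members. Black bars are medians and grey dotted lines the all-gene medians; the core points stand apart under guide 1, with a median change of 0.76 against 0.17 for the others.

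The 2 guides gave different values for many subunits, the guides were not tested against each other, and no member passed the test that took them together. Footprints of core subunits were higher than WT under guide 1 (median log2 difference 0.87, against -0.02 for the other members), close to WT under guide 2 (0.07 and 0.11), and lower than ff in cKO (-0.23 and 0.03). Over all genes the medians were 0.09 for guide 1, -0.03 for guide 2 and -0.20 for cKO. In TE the core medians were 0.76, 0.04 and -0.24 for guide 1, guide 2 and cKO, beside all-gene medians of 0.01, -0.05 and -0.25. The cKO median of the core subunits was therefore close to that of all genes. The other members had TE medians of 0.17, 0.14 and 0.06, all above the all-gene medians.

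Counts past a 2-fold difference, the size rule used throughout, are read beside the share of all genes past it. In input RNA 0 of 77 members were 2-fold higher under both guides (0.0133% of all genes) and 0 were 2-fold lower (0.0265%). Likewise 0 were 2-fold higher (1.42%) or lower (0.169%) in cKO. In footprints 0 members passed under both guides, higher (0.743%) or lower (1.43%). Guide 1 alone had 8 higher members (16.1%), which were Ndufs1, Ndufv1, Ndufa9, Sdha, Sdhb, Uqcrc1, Uqcrc2 and Atp5f1a, and 1 lower, Ndufc1 (10.3%). So 7 of the 8 were core or catalytic subunits, while the members' share was below the background. Guide 2 alone had 1 higher, Cox7c (3.03%), and 0 lower (4.63%). In cKO 1 was higher, Cox8a (2.73%), and 2 were lower, Atp5f1a and Ndufs1 (8.15%).

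In TE, 1 member was 2-fold higher under both guides, Cox7c (0.902%), and 0 were lower (2.04%). The low Cox7c footprints are uncertain, since the treatment of reads matching several gene copies is not given. Guide 1 alone had 7 higher (Ndufa9, Sdha, Uqcrc1, Uqcrc2, Cyc1, Cox7c and Atp5f1a; 14.8%) and 0 lower (13.7%). Guide 2 alone had 3 higher (Ndufa3, Uqcr10 and Cox7c; 3.53%) and 0 lower (4.87%). In cKO 1 member was higher, Cox8a (4.03%), and 0 were lower, while 16.0% of all genes were. In a limma fit of both guides against WT over 7536 genes with Benjamini-Hochberg adjustment, 0 members passed an adjusted p of 0.05 in input RNA (0% of all genes), footprints (0.0133%) or TE (0.0663%). The lowest adjusted p of a member was 0.9998 in input, 0.99997 in footprints and 0.9999 in TE. At an unadjusted p under 0.05 limma gave 3 members in input (Ndufa3, Ndufc1 and Atp5me, all lower), 0 in footprints and 0 in TE, and 55, 65 and 165 of all genes. This fit has 1 residual degree of freedom, which comes from the spread between the guides. In input RNA each gene's spread is drawn by limma toward that of genes with a similar mean value. In footprints and TE the p-values follow from the difference and its SE by a normal distribution. A gene's own spread between the guides thus had almost no weight there, and the SE came from genes of similar mean value.

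**Figure D4:**
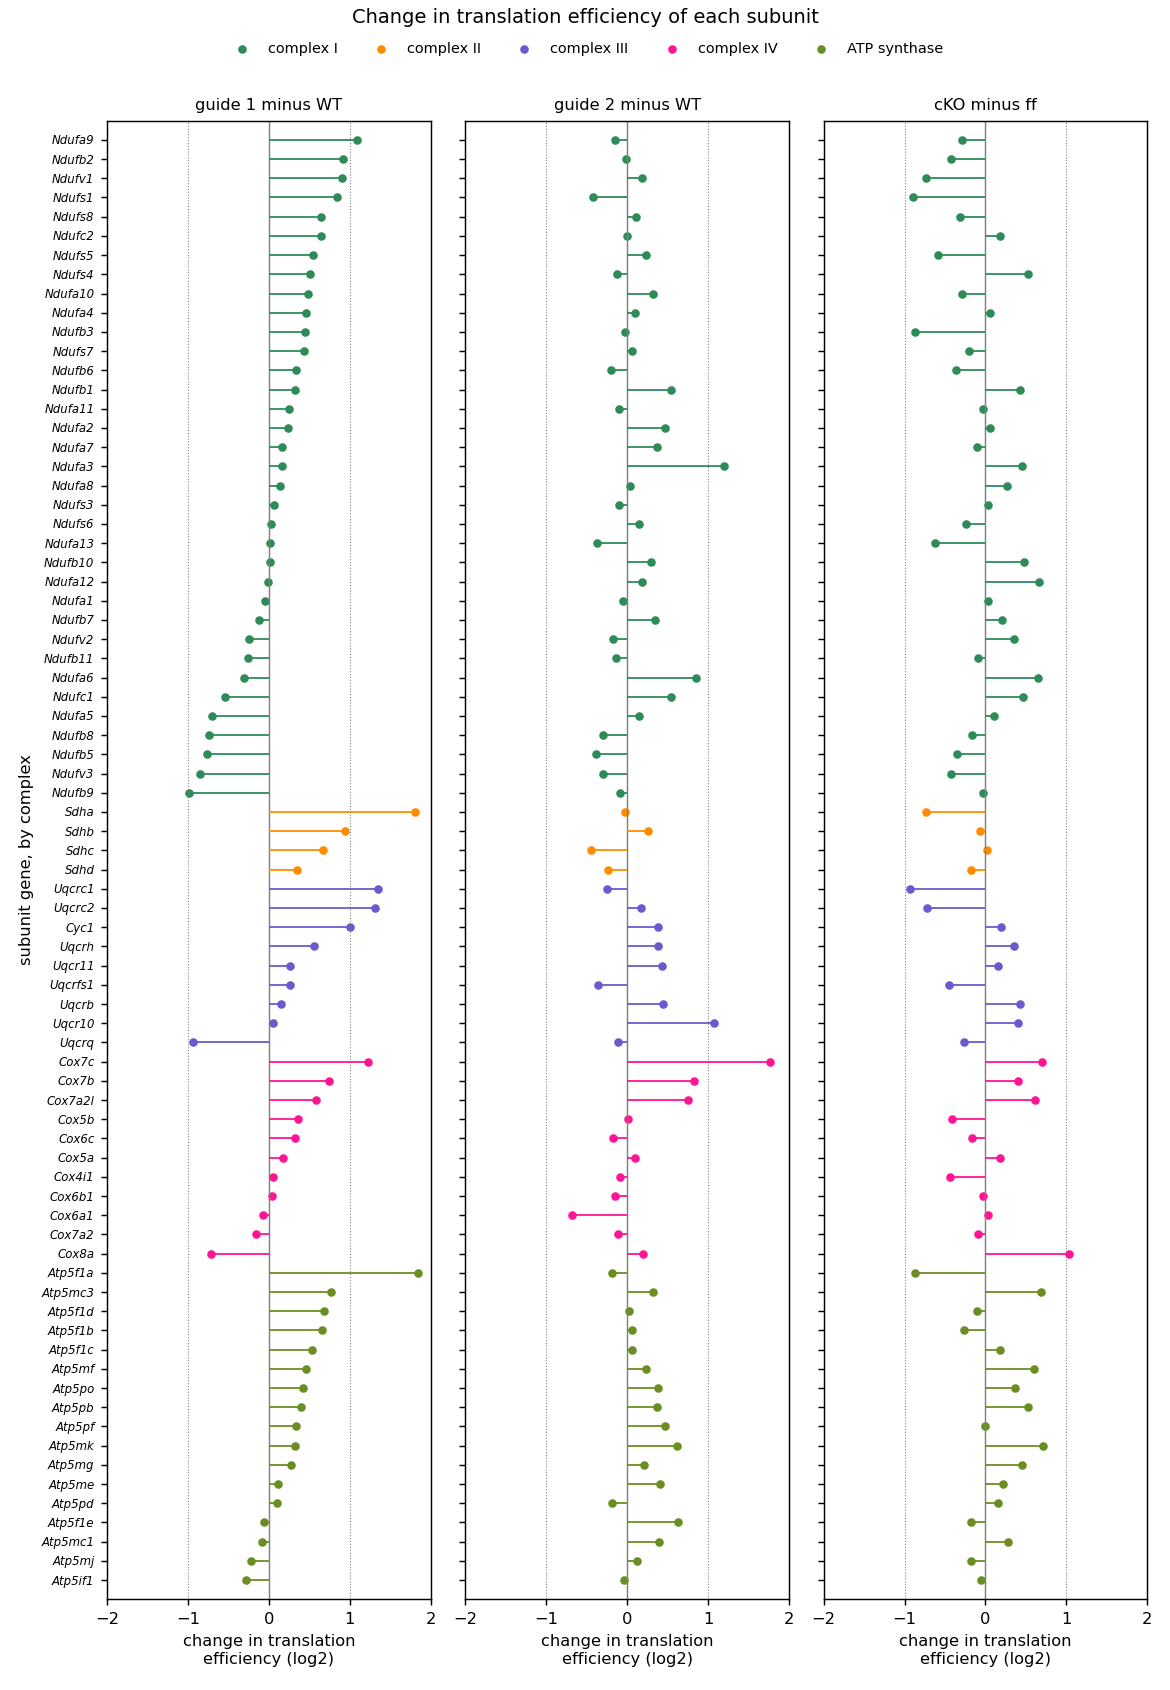
Change in TE (log2) of individual members, 1 line per gene, for guide 1 minus WT, guide 2 minus WT and cKO minus ff, ordered by complex and by the guide 1 value; dotted lines mark 2-fold. Atp5f1a, Sdha, Uqcrc1, Uqcrc2 and Ndufa9 lie beyond 2-fold to the right under guide 1 and to the left of 0 in cKO. Cyc1 and Cox7c, also beyond 2-fold to the right under guide 1, lie to the right of 0 in cKO.

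In complex I, whose core subunits carry electrons from NADH through iron-sulphur clusters to ubiquinone, the N-module subunits Ndufs1 and Ndufv1 differed most among the core. Ndufs1 footprints were 46.2 TPM under guide 1, 16.4 TPM under guide 2 and 22.0 TPM in WT, and 9.45 TPM in cKO against 19.98 TPM in ff. Its input was steady at 72.1 to 82.8 TPM, and its TE difference was 0.84 for guide 1, -0.43 for guide 2 and -0.90 for cKO. Ndufv1, which binds NADH, had footprints of 137 TPM under guide 1, 70.8 TPM under guide 2 and 62.5 TPM in WT, and 35.9 TPM in cKO against 60.2 TPM in ff. Both were highest under guide 1 and lowest in cKO. Ndufv2, their partner in the same module, had 103 TPM under guide 1, 116 TPM under guide 2 and 123 TPM in WT, and 128 TPM in cKO against 110 TPM in ff, so it did not follow them.

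The Q-module core subunits, which form the ubiquinone side, had narrower footprint ranges than Ndufs1 and Ndufv1. The highest footprint value over the lowest was 1.33 for Ndufs3, 1.39 for Ndufs7 and 1.92 for Ndufs8. It was 4.89 for Ndufs1, 3.81 for Ndufv1 and 1.24 for Ndufv2. Ndufs8 had 212 TPM of footprints under guide 1, 140 TPM under guide 2 and 121 TPM in WT, and 110 TPM in cKO against 130 TPM in ff. Ndufs3 and Ndufs7 had TE differences of 0.06 and 0.44 under guide 1, -0.10 and 0.06 under guide 2, and 0.03 and -0.20 in cKO. Among the accessory subunits Ndufa9, which sits next to the Q module, was the sole one 2-fold higher under guide 1. Its footprints were 133 TPM under guide 1, 56.1 TPM under guide 2 and 65.0 TPM in WT, and 46.9 TPM in cKO against 67.5 TPM in ff.

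Among other accessory subunits of complex I, Ndufc1, Ndufb9, Ndufa5 and Ndufa3 had their lowest footprints under guide 1. Ndufc1 had 139 TPM of footprints under guide 1, 322 TPM under guide 2 and 290 TPM in WT, and 308 TPM in cKO against 263 TPM in ff, and its input was also lowest under guide 1 (65.7 TPM against 94.1 TPM in WT). Ndufb9 had the lowest TE difference under guide 1 (-0.99), with 173 TPM of footprints against 326 TPM in WT. Ndufa5, a matrix arm subunit with the highest mean TE of the complex, had 322 TPM under guide 1, 603 TPM under guide 2 and 479 TPM in WT, and 543 TPM in cKO against 529 TPM in ff, from an input of 56.1 to 64.0 TPM. Ndufa3 had the lowest mean input of the complex I genes past the filter, at 46.3 TPM under guide 1, 39.4 TPM under guide 2 and 60.9 TPM in WT, and 44.4 TPM in cKO against 55.0 TPM in ff. Its TE was 1.19 above WT under guide 2, with footprints of 328 TPM against 220 TPM. Ndufa4, the most abundant gene of the group in input (421 to 478 TPM) and now known to act in complex IV, had TE differences of 0.46 under guide 1, 0.10 under guide 2 and 0.06 in cKO. For the 36 complex I genes the median TE difference was 0.17 under guide 1, 0.01 under guide 2 and -0.03 in cKO. The cKO value was 0.13 when mitochondrially encoded, ribosomal protein and histone genes were left out of the total (the trimmed total) and 0.26 after rescaling libraries to the same median, and the guide 1 value was 0.049 on the trimmed total. The 6 genes with the TISU word after the start had a median TE of 1.06 under guide 1, 1.08 under guide 2 and 0.98 in WT, and 1.12 in cKO against 1.23 in ff. The median TE of the 36 complex I genes was 0.70, 0.69, 0.72, 0.74 and 0.98 in the same order. In WT the 6 genes ranged from -1.02 (Ndufa9) to 2.06 (Atp5mf). Whether the word goes with a higher TE was not tested.

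Complex II, which oxidises succinate for both the citric acid cycle and the chain, was the only complex with all its genes higher under guide 1 in footprints. Sdha, the flavoprotein, had 116 TPM under guide 1, 30.4 TPM under guide 2 and 30.1 TPM in WT, and 19.1 TPM in cKO against 32.7 TPM in ff, from an input of 116 to 129 TPM. Sdhb, the iron-sulphur subunit, had 185 TPM under guide 1, 112 TPM under guide 2 and 91.5 TPM in WT, and 83.7 TPM in cKO against 88.9 TPM in ff. The guide 1 value stood above the other 4 libraries for both genes. The membrane anchors Sdhc and Sdhd differed in TE by 0.67 and 0.35 under guide 1, -0.45 and -0.24 under guide 2, and 0.02 and -0.18 in cKO. Sdhc had the lowest input of the complex (71.8 to 78.7 TPM) and the highest TE. The median TE difference of the 4 genes was 0.80 under guide 1, -0.13 under guide 2 and -0.12 in cKO, and the cKO value was 0.040 on the trimmed total and 0.17 once libraries were rescaled to the same median.

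Complex III has few redox subunits beside 2 large core proteins, Uqcrc1 and Uqcrc2, which descend from a processing peptidase. Uqcrc1 had 358 TPM of footprints under guide 1, 118 TPM under guide 2 and 138 TPM in WT, and 75.1 TPM in cKO against 147 TPM in ff. Uqcrc2 had 131 TPM under guide 1, 57.6 TPM under guide 2 and 52.5 TPM in WT, and 31.3 TPM in cKO against 62.1 TPM in ff. Their inputs lay between 191 and 224 TPM and between 119 and 141 TPM, and their TE differences were 1.35 and 1.32 under guide 1, -0.25 and 0.17 under guide 2, and -0.93 and -0.72 in cKO. Cyc1, the haem-bearing cytochrome c1, had a TE 1.01 above WT under guide 1, 0.39 under guide 2 and 0.19 above ff in cKO. Uqcrfs1, the Rieske iron-sulphur protein, had TE differences of 0.26 under guide 1, -0.36 under guide 2 and -0.45 in cKO.

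The small subunits of complex III followed another order. Uqcr10 had 201 TPM of footprints under guide 1, 437 TPM under guide 2 and 227 TPM in WT, and 483 TPM in cKO against 311 TPM in ff, so guide 2 and cKO were the high libraries. Uqcrq, a ubiquinone-binding subunit, had 483 TPM under guide 1, 828 TPM under guide 2 and 899 TPM in WT, and 1041 TPM in cKO against 812 TPM in ff. Uqcr11 had the highest TE of the complex in each condition (2.51 to 2.95), and Uqcrh, the hinge protein, the highest input (379 to 479 TPM). Over the 9 genes the median TE difference was 0.26 under guide 1, 0.38 under guide 2 and 0.16 in cKO. On the trimmed total it was 0.15 under guide 1 and 0.32 in cKO, and rescaling to the same median gave 0.45 in cKO.

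In complex IV the core is encoded in mitochondrial DNA, and the nuclear genes supply the surrounding subunits. Cox7c had the lowest TE of all members in each library, with footprints of 26.9 TPM under guide 1, 44.0 TPM under guide 2 and 13.4 TPM in WT, and 49.6 TPM in cKO against 29.6 TPM in ff, from 442 to 534 TPM of input. Both guides lay above WT and cKO above ff, but these footprints are low for their input. How reads matching several gene copies were treated is not given in the sources used here, so the Cox7c values are uncertain. The TE of Cox7c was 1.23 above WT under guide 1, 1.76 under guide 2 and 0.70 above ff in cKO. The limma estimate for both guides was 1.49 ± 1.478 (SE, adjusted p = 0.9999), with an SE that came almost wholly from other genes of similar mean value. Cox7a2l, which joins complex III to complex IV in supercomplexes, also had a higher TE in all 3 comparisons (0.58, 0.76 and 0.62 for guide 1, guide 2 and cKO). So did Cox7b, with the lowest mean input of the complex, at 0.74, 0.83 and 0.41. The TE of Cox8a was 0.72 below WT under guide 1, 0.19 above it under guide 2 and 1.03 above ff in cKO. Cox6a1 was the lowest under guide 2, with 198 TPM of footprints against 297 TPM in WT, and Cox4i1, the regulatory isoform with the highest mean input of the complex, was the lowest in cKO, with 651 TPM against 795 TPM in ff. The median TE difference of the 11 genes was 0.18 under guide 1, 0.01 under guide 2 and 0.04 in cKO. The trimmed total gave 0.061 under guide 1 and 0.20 in cKO, and the same-median rescaling 0.33 in cKO.

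ATP synthase consists of a catalytic F1 head, a central stalk that turns with the c ring and a peripheral stalk that holds the head still. Atp5f1a had 722 TPM of footprints under guide 1, 183 TPM under guide 2 and 194 TPM in WT, and 87.9 TPM in cKO against 184 TPM in ff. Its input was 672 TPM under guide 1, 695 TPM under guide 2 and 648 TPM in WT, and 598 TPM in cKO against 679 TPM in ff. The guide 1 library was thus far above and the cKO library below the other 3, at nearly equal RNA. Atp5f1b, the beta subunit that pairs with alpha in the head, had 2324 TPM under guide 1, 1549 TPM under guide 2 and 1435 TPM in WT, and 981 TPM in cKO against 1309 TPM in ff. The ratio of Atp5f1b to Atp5f1a footprints was 3.22 under guide 1, 8.47 under guide 2 and 7.40 in WT, and 11.2 in cKO against 7.12 in ff. In input RNA that ratio lay between 4.27 and 4.46 in all 5 libraries.

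**Figure D5:**
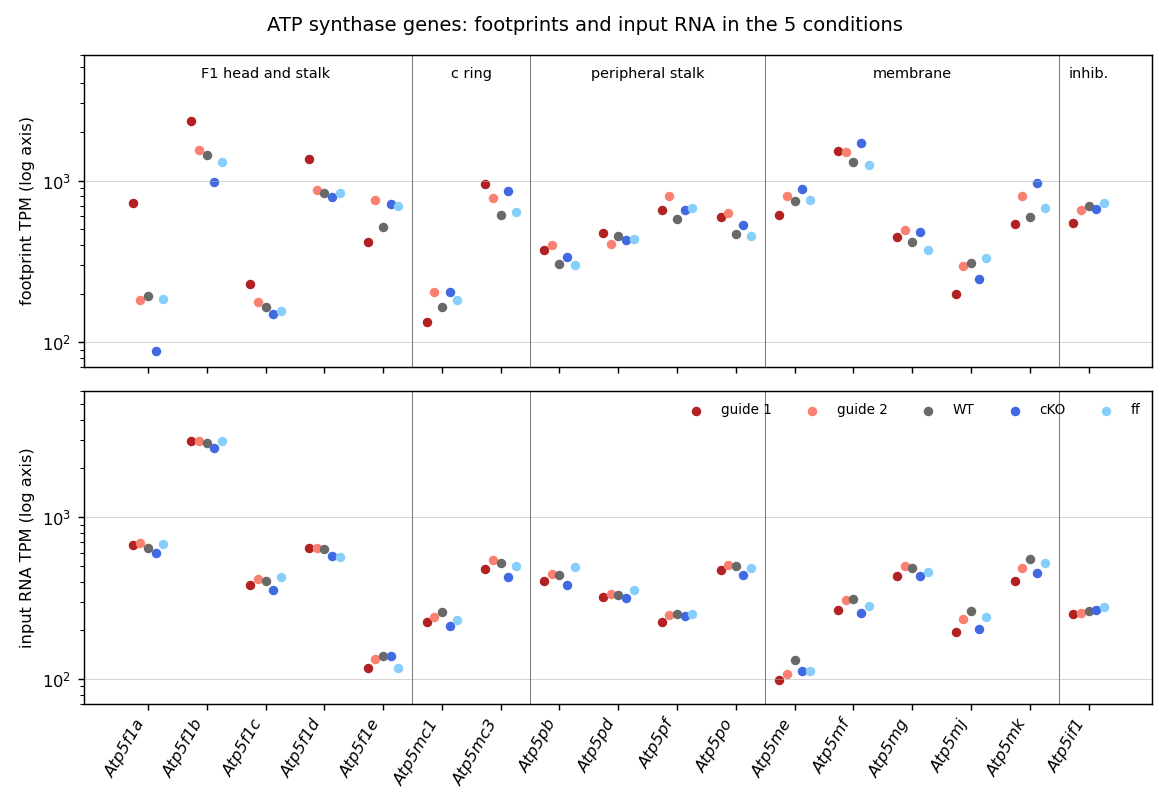
TPM on a log axis of 17 ATP synthase genes in footprint (top) and input RNA (bottom) libraries, with 1 point per condition and genes ordered from the F1 head and central stalk to the c ring, peripheral stalk, membrane part and inhibitor. Input points of a gene lie close together, whereas Atp5f1a footprints spread between 87.9 and 722 TPM.

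In the rest of the enzyme no gene had a footprint range as wide as that of Atp5f1a. The central stalk genes Atp5f1c and Atp5f1d had TE differences of 0.54 and 0.68 under guide 1, 0.06 and 0.02 under guide 2, and 0.19 and -0.10 in cKO. Atp5f1e, the smallest stalk subunit, had 417 TPM of footprints under guide 1, 756 TPM under guide 2 and 516 TPM in WT, and 715 TPM in cKO against 691 TPM in ff. Of the c-ring genes, Atp5mc1 had 134 TPM under guide 1, 203 TPM under guide 2 and 165 TPM in WT, and 205 TPM in cKO against 183 TPM in ff. Atp5mc3 had 949 TPM under guide 1, 783 TPM under guide 2 and 609 TPM in WT, and 867 TPM in cKO against 638 TPM in ff, and was the one c-ring gene above its control in all 3 comparisons by over 0.3 in TE. The peripheral stalk genes Atp5pb and Atp5po were likewise higher in TE in all 3 (0.39 and 0.42 under guide 1, 0.37 and 0.39 under guide 2, 0.52 and 0.36 in cKO). Atp5me, a membrane subunit, had the lowest input (99.0 to 131 TPM) and the highest TE of the enzyme. Atp5if1, the inhibitor that stops reverse turnover, had TE differences of -0.28, -0.04 and -0.06 for guide 1, guide 2 and cKO. The median TE difference of the 17 genes was 0.33 under guide 1, 0.23 under guide 2 and 0.19 in cKO. With the trimmed total it was 0.22 under guide 1 and 0.35 in cKO, and with the same-median rescaling 0.48 in cKO.

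The cKO comparison shares no library with the guide comparisons. Across the 77 members the TE differences of guide 2 and of cKO had a Pearson's r of 0.55 (0.49 over 6927 genes), while those of guide 1 and of cKO had an r of -0.28 (-0.02). For footprints r was 0.50 (0.44) with guide 2 and -0.52 (-0.26) with guide 1. The guide 2 and cKO libraries were thus alike for the members about as much as for all genes. The median footprint difference of the members was 0.11 under guide 1, 0.09 under guide 2 and -0.04 in cKO. Its sign was not stable for guide 1 (-0.058 when mitochondrially encoded, ribosomal protein and histone genes were left out of the total, -0.023 after rescaling to the same median) or for cKO (0.078 and 0.17), and both rescalings left 0 members 2-fold lower in cKO.

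Under guide 1, the genes that build the complexes and the mitochondrially encoded side of the chain had lower median TE differences than the subunits; this contrast between lists was not tested. The 52 assembly factors that passed the filter had a median TE difference of -0.17 under guide 1, 0.10 under guide 2 and -0.05 in cKO. The 13 mitochondrially encoded subunits had medians of -3.90 under guide 1, -0.44 under guide 2 and 0.61 in cKO, with all 13 at least 2-fold lower under guide 1. Thus mt-Co1, the catalytic subunit of complex IV, had 690 TPM of footprints under guide 1, 8737 TPM under guide 2 and 12713 TPM in WT, and 11545 TPM in cKO against 8154 TPM in ff. The 78 mitochondrial ribosomal protein genes, which make the ribosome that reads those messages, had medians of 0.28, 0.22 and 0.13 for guide 1, guide 2 and cKO, close to the 0.27, 0.09 and 0.02 of the members. The 11 ubiquinone synthesis genes had 0.25, -0.09 and -0.31, and the 9 genes of mitochondrial DNA expression 0.29, 0.05 and 0.26. In limma 0 genes of these lists passed an adjusted p of 0.05 in input RNA, footprints or TE. At an unadjusted p under 0.05 it gave 2, 13 and 12 of the 13 mitochondrially encoded genes in input, footprints and TE, and 0 genes of the other lists. Those p-values in footprints and TE rest almost wholly on the spread of other genes.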

How the data were processed

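Per the submitters' processing notes, reads were trimmed with fastp 0.18.0 and mapped with Bowtie2; for the genome build, annotation, quantifier and treatment of reads matching several genes the entry is: not given in the sources used here. The authors deposited TPM for input RNA and footprints, in 1 table of 6 iBMDM libraries and 1 of 4 TAM libraries. TPM holds no read totals, so sequencing depth is unknown, and intervals for counting error could not be had. Members and gene lists were chosen with earlier results of these data known. Of 21956 rows in each table, a repeated symbol kept its highest row (Atp5po among members). Genes averaging 5 TPM or more in input and in footprints were analysed (7536 iBMDM, 7101 TAM) as log2(TPM + 1), which understates differences of low genes. Both guides were tested against WT with limma 3.58.1 (R 4.3.3, trend, Benjamini-Hochberg over all genes). The fit was also run on simulated data with independent noise per gene and no library-wide difference, so that run cannot judge these libraries. Labels do not say that the lines are separate cultures. The limma p-values therefore measure only the spread between these samples, pooled over genes of similar mean value. No test was possible for cKO against ff; a 2-fold rule was used there and per guide. Named genes were, per complex, the extremes of mean input and mean TE, members past 2-fold, catalytic subunits, isoform pairs and c-ring genes; further examples were picked after their values were seen. Alternatives were the pseudocount, the filter, rescaling of libraries, summed repeats, no trend, an interaction term, Ndufa4 in complex IV, and leaving out a guide. Of the 87 symbols, 83 matched RefSeq. Coding lengths and proteins were not used here. The values of 1 member, counted in the group summaries, are not reported here.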

Additional observations from a re-analysis of the deposited data

Results flagged for a closer look

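For 7 subunits the TE differed in one direction under both guides and in the other in cKO, by at least 0.1 on the log2 scale in each. For each gene the difference between the comparisons was not tested. The share of all genes that meet this rule was not counted, so 7 cannot be read as many or few. Ndufv1, the NADH-binding subunit of complex I, was 0.91 and 0.18 above WT under guide 1 and guide 2, and differed by -0.74 in cKO from ff. Uqcrc2, a core protein of complex III, was 1.32 and 0.17 above WT and differed by -0.72 in cKO. Ndufs5, an accessory subunit of complex I, had 0.55 and 0.24 under the guides and -0.59 in cKO. Ndufs8, an iron-sulphur subunit of its Q module, had 0.64 and 0.10 under the guides and -0.31 in cKO. Ndufa10 had 0.48 and 0.32 under the guides and -0.28 in cKO, and Ndufa7 had 0.17 and 0.37 under the guides and -0.10 in cKO. Ndufv2 alone lay the other way, at -0.24 and -0.18 under the guides and 0.36 in cKO. The all-gene median TE difference was 0.01 under guide 1, -0.05 under guide 2 and -0.25 in cKO. The cKO values of Ndufs8, Ndufa10 and Ndufa7 were thus close to that of all genes or above it.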

How the results depend on the processing

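Of 296 values recomputed under the alternatives, 258 stayed within the tolerance (under 0.1 on the log2 scale for a median) and 38 did not. Medians near 0 could change sign within it or beyond it, and the median TE difference of complex II in cKO, -0.12, was 0.17 after rescaling libraries to the same median. With mitochondrially encoded, ribosomal protein and histone genes out of the total, the member medians were 0.078 for cKO footprints, -0.058 for guide 1 footprints, 0.18 for cKO TE and 0.16 for guide 1 TE. After rescaling to the same median they were 0.17, -0.023 and 0.31 for the first 3, and -0.17 for guide 1 input. Members 2-fold lower in cKO footprints numbered 0 under both rescalings, and 1 with a mean of at least 20 TPM or with a pseudocount of 5. Members 2-fold higher in cKO TE numbered 2 after rescaling to the same median. With no filter, 3 members were 2-fold higher in cKO footprints, 1 in input and 3 in TE, and 1 was 2-fold lower in TE. With a pseudocount of 0.1, 1 member was 2-fold higher in footprints under both guides. Leaving out either guide gave 1 to 8 members higher in footprints, 0 to 1 lower and 3 to 7 higher in TE. The cause of these shifts was not tested. A fit with the line as a block, which pairs footprint and input libraries, also called 0 members in TE. All values rest on 1 library per condition and kind, and the depth of each is unknown.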

Other observations

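The citric acid cycle, which feeds the chain with NADH and succinate, showed larger footprint differences than the subunits in the guide 1 library. All 14 listed enzymes had more footprints than WT under guide 1, 12 of them at least 2-fold (16.1% of all genes), with a median log2 difference of 1.44 beside 0.09 over all genes. Under guide 2 the median was 0.25 (-0.03 over all genes) with 12 of 14 higher, and in cKO it was -0.40 (-0.20 over all genes) with 0 of 14 higher than ff. The TE medians were 1.36 under guide 1, 0.27 under guide 2 and -0.23 in cKO, beside all-gene medians of 0.01, -0.05 and -0.25. Sucla2, the ADP-forming succinyl-CoA ligase subunit, had 97.1 TPM of footprints under guide 1, 48.8 TPM under guide 2 and 20.8 TPM in WT, and 15.2 TPM in cKO against 77.7 TPM in ff. Its input was 83.0 TPM under guide 1, 94.8 TPM under guide 2 and 91.4 TPM in WT, and 85.3 TPM in cKO against 89.3 TPM in ff. Mdh2, the mitochondrial malate dehydrogenase, had 364 TPM of footprints under guide 1, 172 TPM under guide 2 and 147 TPM in WT, and 110 TPM in cKO against 153 TPM in ff. In limma 0 of the 14 genes passed an adjusted p of 0.05 in input, footprints or TE, and 1 (Sucla2, in footprints) had an unadjusted p under 0.05. Of the regulators of mitochondrial gene expression, Ppargc1a and Ppargc1b, the coactivators PGC-1 alpha and beta, were under 1 TPM in every library of both kinds, and the related Pprc1 had 73.3 to 84.8 TPM of input.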
